A study of Sus scrofa with 20 samples.

Results

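The genes described here carry glucose across cell membranes and act on it in the first and last steps of its breakdown: 5 glucose transporters (SLC2A1, SLC2A2, SLC2A3, SLC2A4 and SLC2A8), the hexokinases HK1 and HK2, the hexokinase regulator GCKR and the pyruvate kinase PKLR. Symbols were mapped to pig Ensembl identifiers of the count table, and symbols without an identifier there were skipped. This left 7 of the 9 listed genes, since SLC2A1 and SLC2A3 had no such identifier and were not analysed here. All 7 were among the 16275 genes tested, out of 31907 genes in the table.

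Backfat, the subcutaneous fat layer of the back, was compared with liver in boars of Nanchukmacdon, a Korean pig breed. Both tissues came from the same 5 animals, labelled wild type, of normal disease state and with no treatment named, so the comparison is between tissues of 1 breed and not between genotypes. The labels give an age of 22 months, and the methods of the study give another average age. Of 20 samples, 10 were RNA-seq libraries, 5 per tissue, which are named below by the boar number in their column names (65, 67, 69, 71 and 72). Where 5 values follow each other they are in that order.

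Glucose enters cells down its gradient through carriers of the SLC2A (GLUT) family and is then trapped by hexokinases as glucose 6-phosphate. SLC2A4 (GLUT4) is the carrier that insulin moves to the surface of fat and muscle cells, whereas SLC2A2 (GLUT2) is the low-affinity carrier of hepatocytes, through which glucose can pass in either direction. The liver both takes up and releases glucose, and fat cells use it for energy, glycerol and fatty acids.

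Levels are CPM, counts relative to the library total, after scaling by the trimmed mean of M-values (TMM). A positive log2 fold change is higher in backfat, and adjusted p-values are from the quasi-likelihood test of edgeR with Benjamini-Hochberg adjustment over 16275 genes. Library totals were 45157114 to 61772737 counts in backfat and 43820042 to 53768601 in liver. The liver library of boar 67 stood apart: genes of the mitochondrial genome took 44.5% of its counts, against 6.38% to 20.2% in the other 9 libraries. Adipocyte markers (ADIPOQ, PLIN1, FABP4, LEP and CIDEC) summed to 9099 to 11957 CPM in backfat and 8.05 to 11.1 CPM in liver. Hepatocyte markers (ALB, APOA1, FGB, TF, SERPINC1 and TTR) summed to 26123 to 98700 CPM in liver, lowest in boar 67, and to 171 to 571 CPM in backfat, highest in boar 69. APOA1 made up most of the backfat sums, at 167 to 482 CPM. Because whole pieces of tissue were sequenced, fewer cells of a type and less RNA per cell cannot be told apart.

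Each of the 7 genes differed between the tissues. SLC2A4, HK1 and HK2 were higher in backfat, and SLC2A2, SLC2A8, GCKR and PKLR were higher in liver. All 7 passed an adjusted p of 0.05, as did 55.0% of all genes tested. All 7 also passed a second rule that asks in addition for a log2 fold change of 2 or more, up or down, as did 22.3% of all genes tested (11.1% higher in backfat and 11.2% higher in liver). For all 7 the 5 backfat and the 5 liver libraries did not overlap, which held for 42.6% of genes.

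**Figure D1:**
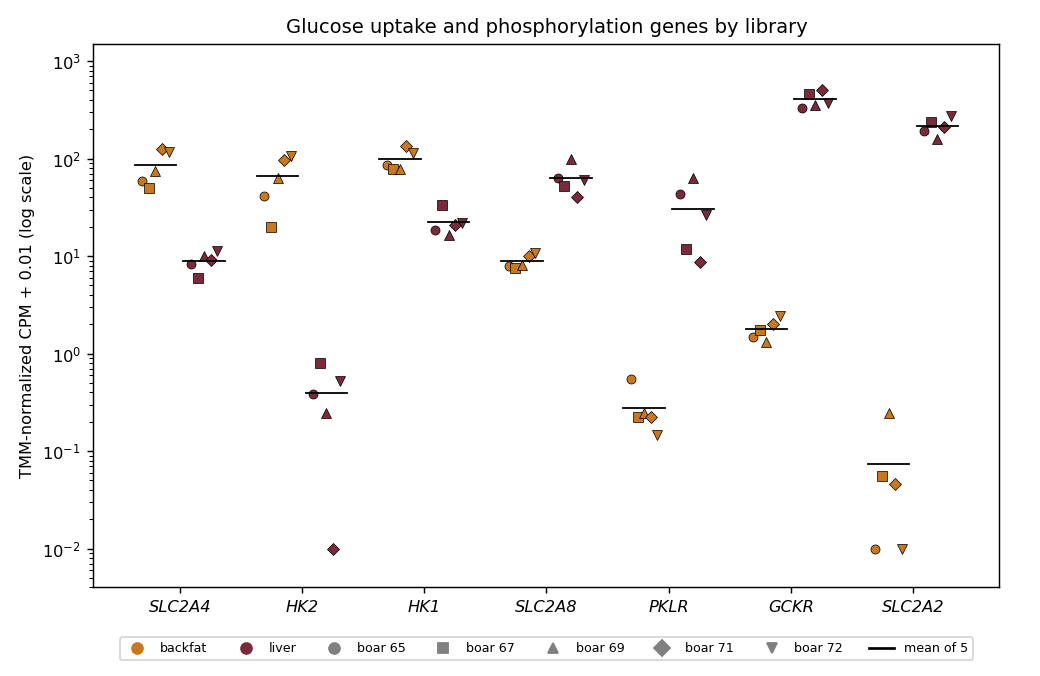
TMM-normalized CPM plus 0.01 on a log axis for the 7 genes, with 1 point per library, the boar shown by the symbol and the tissue by colour (orange, backfat, and dark red, liver). Bars are means of 5 libraries. No gene has overlapping tissues, and points at 0.01 are libraries with 0 counts.

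SLC2A4 (ENSSSCG00000023915, chr12:52628746-52634965, plus strand, 11 exons in the RefSeq annotation of Sscrofa11.1) was the most abundant transporter among the 7 genes in backfat. Its levels there were 59.4, 50.5, 75.3, 125 and 116 CPM in boars 65, 67, 69, 71 and 72. In liver they were 8.28, 5.94, 10.1, 9.13 and 11.2 CPM in the same order. The lowest backfat library was thus above the highest liver library, and within backfat boars 71 and 72 were highest. The means were 85.2 ± 33.5 and 8.93 ± 2.002 CPM (SD, n = 5), a log2 fold change of 3.25 (SE 0.29, adjusted p = 1.29e-06) or 9.54-fold. The SLC2A4 signal of liver was 10.48% of the backfat mean, and the 5 adipocyte markers reached between 0.000953% and 0.715% of theirs in liver. Which cells gave the SLC2A4 signal of liver was not tested.

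SLC2A2 (ENSSSCG00000020927, chr13:109592595-109614105, minus strand, 10 exons) had the largest tissue difference of the 7. In liver it measured 190, 237, 161, 212 and 272 CPM in boars 65, 67, 69, 71 and 72, with a mean of 214 ± 42.7 CPM. In backfat the 5 libraries held 0, 3, 14, 2 and 0 counts, 19 in all against 40719 in liver. The 0 counts of boars 65 and 72 allow a level of up to 0.0338 and 0.0515 CPM, since a true count of up to 3 can give 0 by counting error alone. The log2 fold change was −11.75 (SE 0.72, adjusted p = 6.09e-08). Without the backfat library of boar 69, which held 14 of the 19 counts, it was −13.29. That library also had the highest level of all 6 hepatocyte markers in backfat, from 0.101% (TTR) to 3.31% (APOA1) of their liver means. SLC2A2 was at 0.110% of its liver mean there. Whether those counts came from liver RNA was not tested.

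SLC2A8 (ENSSSCG00000005610, chr1:267925184-267934096, plus strand), the GLUT8 carrier, which is held mostly on membranes inside the cell, was present in both tissues. Levels were 63.8, 52.3, 99.4, 40.1 and 60.3 CPM in liver and 7.91, 7.46, 8.09, 10.02 and 10.8 CPM in backfat. The backfat libraries lay within a narrow range, and the liver of boar 69 was highest. Means were 63.2 ± 22.2 and 8.86 ± 1.47 CPM, a log2 fold change of −2.83 (SE 0.24, adjusted p = 8.43e-07), or 7.13-fold higher in liver. Its backfat level was 14.02% of its liver mean, and the hepatocyte markers lay between 0.0220% and 1.69% of theirs. Which cells gave the SLC2A8 signal of backfat was not tested.

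The 250 bases before the annotated starts of SLC2A8 and of HK1 are shown because these are the 2 genes that kept 14.02% or more of the higher mean in the other tissue and whose annotated starts lie upstream of the coding start, by 87 and 126 bases. Both are printed 5′ to 3′ on the plus strand of Sscrofa11.1, with capitals for matches on either strand to GC boxes (GGGCGG) and to boxes that read CCAAT.
SLC2A8, chr1:267924934-267925183: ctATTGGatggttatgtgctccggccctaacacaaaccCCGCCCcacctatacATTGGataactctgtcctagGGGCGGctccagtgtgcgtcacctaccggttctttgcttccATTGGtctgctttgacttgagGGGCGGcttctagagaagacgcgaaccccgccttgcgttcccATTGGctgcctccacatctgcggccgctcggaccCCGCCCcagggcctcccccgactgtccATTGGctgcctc
HK1, chr14:72383078-72383327: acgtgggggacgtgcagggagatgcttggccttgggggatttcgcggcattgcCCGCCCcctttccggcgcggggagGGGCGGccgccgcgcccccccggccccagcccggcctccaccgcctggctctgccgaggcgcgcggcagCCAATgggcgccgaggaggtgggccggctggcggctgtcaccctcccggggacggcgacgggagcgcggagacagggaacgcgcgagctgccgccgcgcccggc
The SLC2A8 window held 4 GC boxes and 5 CCAAT boxes, and the HK1 window held 2 and 1, with no overlap between motifs. Among the windows of 19556 annotated genes, 45.9% held a GC box and 31.9% a CCAAT box. Neither window held the E-box letters CACGTG, found in 6.39% of windows. Both also lacked the TATA box letters TATAAA, found in 9.77%, and the homeodomain-type letters GTTAAT, found in 5.90%. HK1 had 36 CpG dinucleotides and a GC content of 79.2%, and SLC2A8 had 15 and 60.8%, against a median of 12 CpG over all windows. A motif match is a description of letters and not of binding. The methylation calls of the study carry no genomic position in the files used, so they add nothing on these windows.

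Set side by side per kilobase of exon, the 3 transporters among the 7 genes had opposite make-ups in the tissues. SLC2A4 made up 93.9% ± 1.41 of their summed level in backfat, between 92.2% and 95.6% in single libraries, and 6.95% ± 1.35 in liver. SLC2A2 made up 64.8% ± 10.1 of the sum in liver and SLC2A8 28.2% ± 9.67. The liver of boar 69 stood lowest for SLC2A2, at 48.3%, and highest for SLC2A8, at 44.0%. SLC2A1 and SLC2A3, the widespread carriers of basal uptake, are not in these sums. Other hexose carriers that were measured are not in them either, so the shares are not those of all glucose carriers. SLC2A10 was at 20.6 CPM in backfat and 24.6 CPM in liver, and SLC2A5 at 14.7 and 0.156 CPM. SLC2A8 was at 8.86 and 63.2 CPM.

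**Figure D2:**
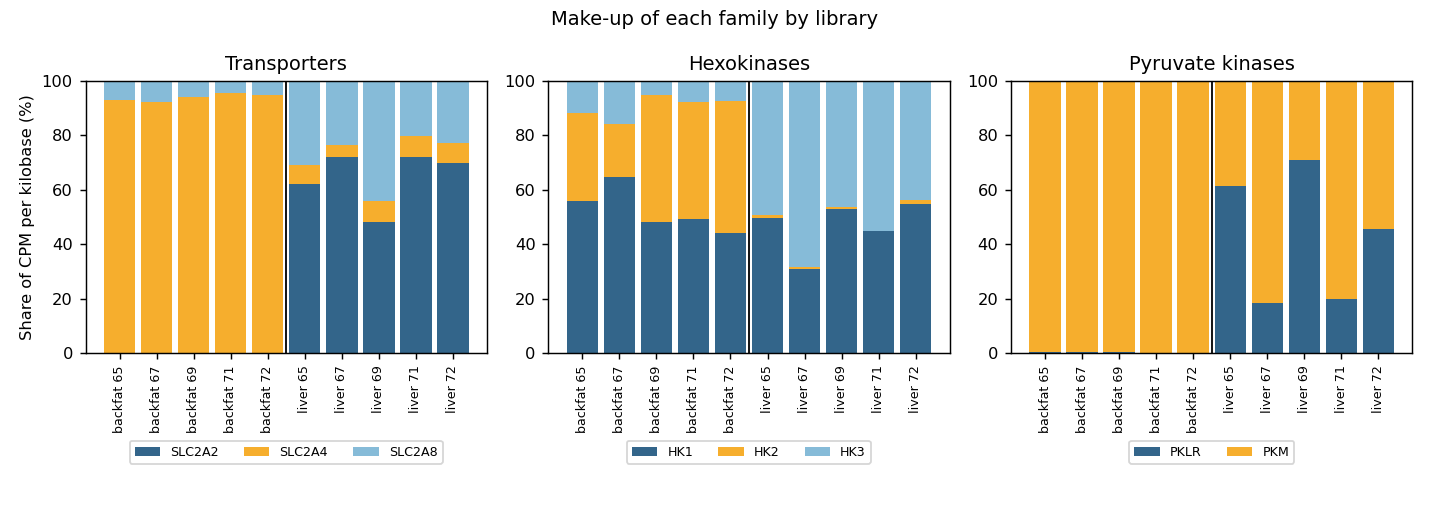
Share in percent of the summed CPM per kilobase taken by SLC2A4, SLC2A2 and SLC2A8 among the 3 transporters, by HK1, HK2 and HK3 among the 3 hexokinases, and by PKLR and PKM among both, with 1 stacked bar per library. SLC2A4 takes 92.2% to 95.6% of every backfat bar of the transporters, and the PKLR share of liver runs from 18.3% to 70.9%.

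Of the hexokinases, which make glucose 6-phosphate, HK2 separated the tissues far more widely than HK1. HK2 (ENSSSCG00000008261, chr3:68155656-68231187, minus strand, 18 exons) is the inducible form of insulin-responsive tissue. In backfat it measured 41.3, 20.0, 63.4, 97.5 and 106 CPM in boars 65, 67, 69, 71 and 72, a 5.33-fold range. In liver it stayed between 0 and 0.783 CPM, with 74 counts in all against 20354 in backfat. The liver of boar 71 had 0 counts, which allow up to 0.0948 CPM, and the liver of boar 67 was highest. Means were 65.7 ± 36.6 and 0.381 ± 0.294 CPM, a log2 fold change of 7.41 (SE 0.69, adjusted p = 1.97e-06), or 170-fold higher in backfat. The liver level was 0.580% of the backfat mean. Of the adipocyte markers in liver, only CIDEC (0.715%) was higher. PLIN1 (0.262%), FABP4 (0.0683%), LEP (0.00618%) and ADIPOQ (0.000953%) were lower.

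HK1 (ENSSSCG00000010253, chr14:72383328-72460927, plus strand, 19 exons) is the housekeeping form found in most cells, and it had the smallest difference of the 7. Backfat levels were 85.1, 78.8, 78.1, 134 and 115 CPM, and liver levels were 18.6, 33.8, 16.5, 20.6 and 22.1 CPM. The liver of boar 67 was highest of the liver libraries, yet less than each backfat library. Means were 98.2 ± 25.0 and 22.3 ± 6.73 CPM, a log2 fold change of 2.14 (SE 0.24, adjusted p = 8.17e-06), or 4.402-fold. Leaving out 1 library at a time gave 2.01 to 2.30, the highest without the liver of boar 67. That liver also had the highest sums of red cell markers (1778 CPM, next 374) and skeletal muscle markers (159 CPM, next 1.22) among livers. Their part in its HK1 and HK2 levels was not tested. In backfat the skeletal muscle markers summed to 9.86 CPM in boar 72, the lowest, up to 399 CPM in boar 65. The part of muscle RNA in the backfat levels was not tested either.

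Per kilobase, HK2 was 41.6% ± 11.8 of HK1 and HK2 together in backfat, from 23.2% in boar 67 to 52.4% in boar 72. In liver it was 1.88% ± 1.13. Backfat thus held both hexokinases at levels whose ranges overlapped, with HK1 above HK2 in 4 of 5 libraries, and liver held almost only HK1 of the pair.

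GCKR (ENSSSCG00000028672, chr3:111649557-111683539, minus strand) encodes the regulatory protein that binds the low-affinity hexokinase of hepatocytes and keeps it in the nucleus when glucose is low. It was the most even of the liver genes, at 334, 463, 359, 506 and 374 CPM in boars 65, 67, 69, 71 and 72. In backfat it was at 1.48, 1.72, 1.31, 1.98 and 2.42 CPM. Means were 407 ± 73.5 and 1.78 ± 0.437 CPM, a log2 fold change of −7.84 (SE 0.28, adjusted p = 1.66e-09), or 228-fold higher in liver. Among the backfat libraries, boar 69 was highest for the hepatocyte markers and lowest for GCKR. Whether part of the GCKR signal in backfat came from liver RNA was not tested. In the RefSeq annotation exons of GCKR overlap those of FNDC4 on the other strand. The overlap came to 78 bases summed over all pairs of exons, in which a base can count more than once. FNDC4 was at 6.65 ± 2.02 CPM in backfat and 17.2 ± 6.18 CPM in liver. Counting did not use strand and left out reads that overlap several genes, so reads of shared bases count for neither gene where the counting annotation holds the same overlap, which was not checked.

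PKLR (ENSSSCG00000026149, chr4:94536978-94546561, plus strand, 11 exons), the liver and red cell pyruvate kinase, acts at the last step of glycolysis. Its liver levels were 42.9, 11.9, 63.0, 8.78 and 26.5 CPM, a 7.18-fold range and the widest among the liver-high genes in liver. Boar 69 was highest and boars 67 and 71 were lowest. In backfat it held between 8 and 48 counts, or 0.137 to 0.541 CPM, with boar 65 highest. Means were 30.6 ± 22.6 and 0.269 ± 0.157 CPM, a log2 fold change of −6.78 (SE 0.65, adjusted p = 2.33e-06), and it was −7.23 without the backfat of boar 65. Of the 4 measured red cell markers, 3 were also highest in that library, with SLC4A1 at 15.9 CPM against 0.108 to 0.442 in the other 4, AHSP at 11.4 CPM (next 3.67) and ALAS2 at 25.7 CPM (next 18.5). HBB, which made up most of their sum, was highest in boar 72, the backfat library with the lowest PKLR. Their part in the PKLR level of boar 65 was not tested. Exons of PKLR overlap those of genes of the other strand, among them HCN3, by 713 bases in the same sum over pairs of exons. HCN3 measured 0.784 ± 0.278 CPM in backfat and 1.66 ± 1.21 CPM in liver. As for GCKR, reads of these bases count for neither gene where the counting annotation holds the same overlap.

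PKM, the pyruvate kinase of most other tissues, was higher in backfat, at 437 ± 161 against 100 ± 32.2 CPM (log2 fold change 2.12, adjusted p = 7.48e-05). Per kilobase PKLR made up 43.2% ± 23.9 of both kinases in liver and 0.206% in backfat. In single livers its share was 61.4%, 18.3%, 70.9%, 19.7% and 45.6% in boars 65, 67, 69, 71 and 72. These shares rest on the annotated exon lengths, 14076 bases for PKM and 4873 for PKLR. Whether the transcripts present have those lengths was not tested, so which kinase was more abundant in a liver is uncertain. In CPM, without division by length, PKM was above PKLR in all 5 livers, at 77.8, 154, 74.9, 104 and 91.2 CPM.

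Within backfat the order per kilobase was SLC2A4 (30.1 ± 11.8 CPM per kilobase), HK1 (15.3 ± 3.90), HK2 (12.2 ± 6.80), SLC2A8 (1.79 ± 0.298), GCKR (0.419 ± 0.103), PKLR (0.0552 ± 0.0322) and SLC2A2 (0.00872 ± 0.0135). The ranges of the first 3 overlapped from one to the next, as did those of the last 2. Within liver it was GCKR (95.8 ± 17.3), SLC2A2 (29.5 ± 5.86), SLC2A8 (12.8 ± 4.496), PKLR (6.29 ± 4.64), HK1 (3.48 ± 1.05), SLC2A4 (3.15 ± 0.707) and HK2 (0.0708 ± 0.0546). The ranges of SLC2A8, PKLR, HK1 and SLC2A4 overlapped from one to the next, and HK1 exceeded SLC2A4 in only 1 of 5 livers.

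Levels also differed among boars within a tissue, which is described without a test. In backfat HK2 and SLC2A8 shared 1 order, highest in boar 72, then 71, 69, 65 and 67, and SLC2A4 and PKM differed from it only in having boar 71 above boar 72. TXNIP, an arrestin-type protein that lowers glucose uptake by drawing GLUT proteins inward, ran nearly the other way. It was at 1185, 1852, 489, 605 and 348 CPM in boars 65, 67, 69, 71 and 72. The adipocyte markers ADIPOQ and PLIN1 and the vesicle aminopeptidase LNPEP had exactly the reverse of the HK2 order. Whether the make-up of the libraries gave these orders was not tested. In liver PKLR and SLC2A8 shared the order 69, 65, 72, 67 and 71, which was also that of ENO1 and RAB10 from the lists below. G6PC1, the phosphatase that frees glucose for release, had its lowest liver level in boar 69 and was at 477, 619, 219, 1005 and 1209 CPM. With 5 libraries per tissue these orders carry little weight on their own.

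**Figure D3:**
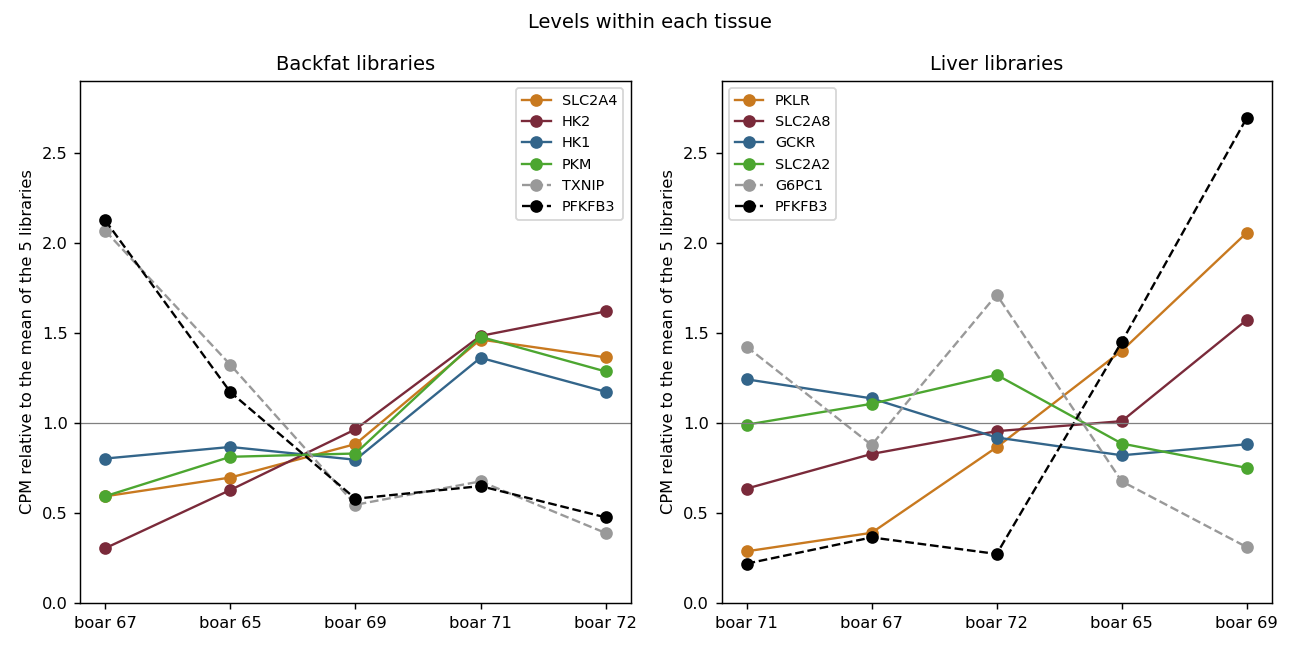
Level of each gene in a library divided by its mean over the 5 libraries of the same tissue, on a linear axis from 0, for backfat and for liver, with boars along the horizontal axis in an order chosen after the values were seen. Solid and dashed lines join the points of 1 gene. In backfat SLC2A4, HK2, HK1 and PKM are highest in boars 71 and 72 while TXNIP is highest in boar 67, and in liver PKLR and SLC2A8 are highest in boar 69 while G6PC1 is lowest there.

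The genes whose levels moved most like SLC2A4 once the tissue means were subtracted were SLC25A1, ELOVL6 and SCD, with Pearson r of 0.98 each over 10 libraries of log2 CPM. They encode the mitochondrial citrate carrier, a fatty acid elongase and stearoyl-CoA desaturase. SCD in backfat was at 270, 174, 996, 5489 and 6094 CPM in boars 65, 67, 69, 71 and 72, a far wider span than that of SLC2A4. For HK2 the closest were AKR1B1, ZCCHC17 and SLC25A6, with r of 0.94, 0.91 and 0.91. For SLC2A2 they were GNG11, CHMP3 and BBC3, with r of 0.95, 0.93 and 0.92, where the backfat side rests on 0 to 14 counts of SLC2A2. These r are the highest among 11066 genes compared for SLC2A4 and 11067 for HK2 and SLC2A2. Taking the highest of so many genes favours large r. Libraries also share depth and make-up across genes, so these are descriptions and carry no p.

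Around these genes, 4 lists of the same pathway were counted, beside 28.0% of all genes tested that were higher in backfat and 27.0% higher in liver at an adjusted p of 0.05. Of the other hexose carriers, 9 were tested: 3 were higher in backfat, 2 were higher in liver and 4 did not pass, with a median log2 fold change of 0.19 against 0.0001 over all genes. SLC2A5 (GLUT5), the fructose carrier, was higher in backfat (6.59, adjusted p = 7.44e-06), as were SLC2A12 (3.66, adjusted p = 1.33e-05) and SLC5A2 (3.57). SLC5A2 was low in both tissues, with 216 counts in backfat and 10 in liver. The liver side was also low for SLC2A5 (28 counts) and SLC2A12 (64 counts). SLC5A1, the sodium-coupled glucose carrier of gut, was higher in liver (−2.67, adjusted p = 7.21e-06), as was SLC2A11 (−1.55).

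The list of other sugar phosphorylation and glucose 6-phosphate hydrolysis leaned to liver, with 6 of 9 tested genes higher there, none in backfat and 3 that did not pass, at a median of −2.15. G6PC1 was at 706 ± 400 CPM in liver and 0.0949 ± 0.164 CPM in backfat (log2 fold change −12.87, SE 1.06, adjusted p = 6.25e-07). Of the 29 backfat counts of G6PC1, 23 were in boar 69, and the other backfat libraries held 0 to 2. SLC37A4, which carries glucose 6-phosphate to that enzyme (−4.20), and KHK (−4.41) and TKFC (−3.67), which phosphorylate fructose and its products, were also higher in liver. HK3 did not pass (−0.81, adjusted p = 0.133).

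Of the enzymes of glycolysis below glucose 6-phosphate, 19 were tested, of which 8 were higher in backfat, 2 were higher in liver and 9 did not pass, at a median of 0.9994. One of the 8 was LDHB, a lactate dehydrogenase subunit, with the largest log2 fold change of those shown (4.78, adjusted p = 1.86e-06) on 798 counts in backfat and 16 in liver. Its counts, and those of ALDOA (171 and 34, not called), were low for these enzymes and are uncertain. PFKP, the platelet-type phosphofructokinase, was higher in backfat (2.18), and PFKFB1 and PFKFB3, which set the level of fructose 2,6-bisphosphate, differed in opposite directions (−2.23 and 2.11). With scaling by library size alone, which moved the median of all genes to 0.71, 16 of the 19 were higher in backfat and 1 was higher in liver.

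Of the 15 genes that handle SLC2A4 and related carriers at the cell surface, 7 were higher in backfat, 1 was higher in liver and 7 did not pass, at a median of 0.41. TXNIP (2.73, adjusted p = 0.000518), the unconventional myosin MYO1C (2.29), the vesicle aminopeptidase LNPEP (2.23) and TBC1D4 (1.94, adjusted p = 1.62e-07), the Rab GTPase-activating substrate of insulin signalling, were higher in backfat. ASPSCR1, which tethers GLUT4 vesicles inside the cell, was higher in liver (−2.39). With library size alone 12 were higher in backfat.

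**Figure D4:**
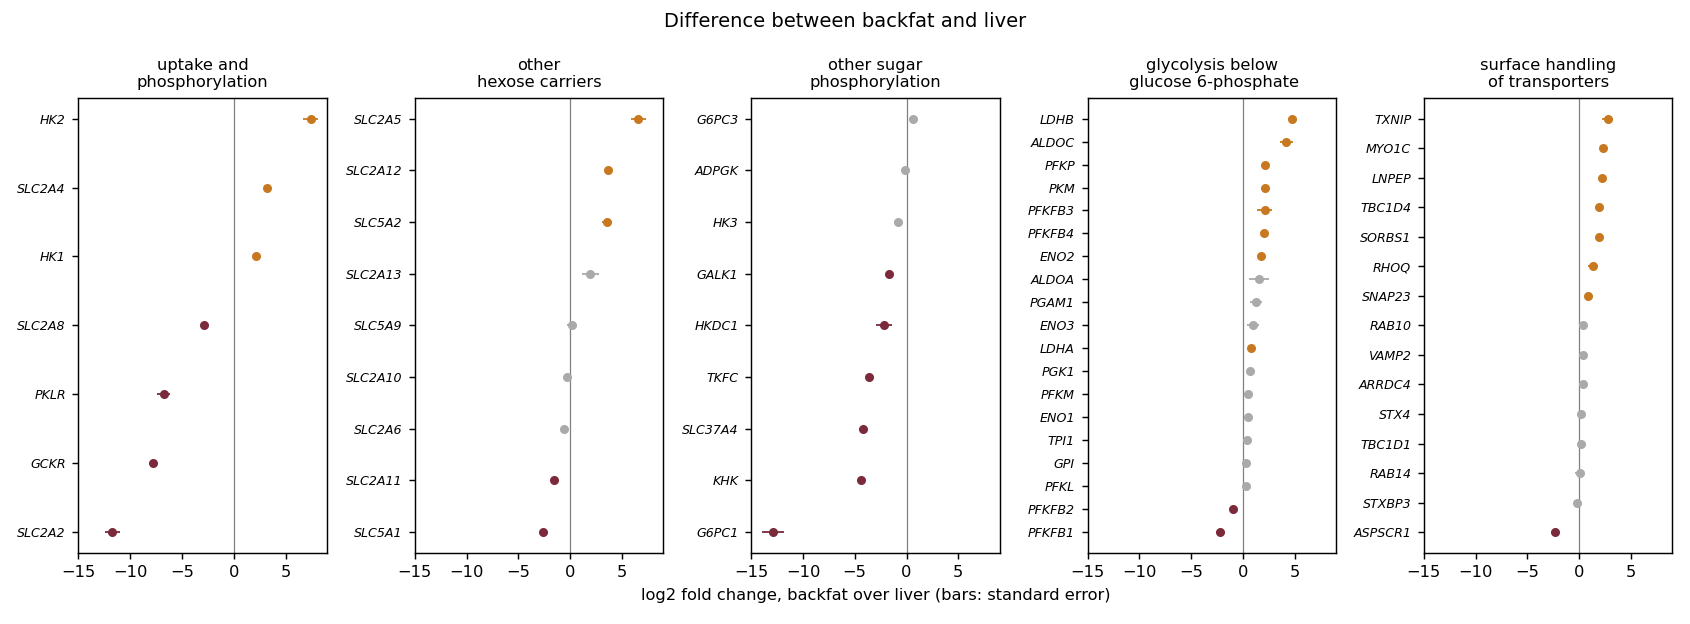
Log2 fold change of backfat over liver with its standard error (bars) for the 7 genes and the tested genes of the 4 lists. Orange is called higher in backfat, dark red higher in liver at an adjusted p of 0.05, and grey did not pass. HK2 (7.41) and SLC2A2 (−11.75) mark the ends among the 7, and G6PC1 (−12.87) lies beyond them.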

How the data were processed

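RNA-seq was performed on backfat and liver of the same 5 boars. The authors ran FastQC and Trimmomatic on the reads, aligned these to Sscrofa11.1 using HISAT2 and, per the file headers, counted with featureCounts 2.0.1 on exons of Ensembl release 99, without strand and without reads that overlap several genes. The deposited values are raw counts per gene, with exon length in bases beside them. WGBS call summaries were not used here, since they hold no genomic position.

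The main test was that of edgeR 4.0.16 under R 4.3.3 (filterByExpr by tissue, TMM, glmQLFit and glmQLFTest, tissue as the only term), and adjusted over 16275 genes. Each standard error is the size of the log2 fold change over the square root of F. Calls used an adjusted p of 0.05, with or without a log2 fold change of 2. Levels per kilobase were CPM over exon length. Likeness was taken on log2 of CPM plus 0.5, over genes at or above 10 counts in each library. The script was tested on simulated data. Symbols were matched to 15029 identifiers through RefSeq, which also gave positions, and upstream windows were read from the Sscrofa11.1 sequence. RefSeq starts of SLC2A2, SLC2A4 and HK2 lie 0, 11 and 4 bases from the coding start, so their windows are not shown.

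The genes, lists and tests were chosen with earlier results of these data known. Genes named beside the 7 were those of the fixed lists that were called or at an end of a list, up to 4 per list, plus the 3 most like SLC2A2, SLC2A4 and HK2. One gene of the glycolysis list is not reported here. SLC2A10, SLC2A11, HK3, PKM, GAPDH, ALDOA, ENO1, RAB10 and ASPSCR1 were named after their values were seen. Boar numbers came from column names, and both tissues were taken from the same animals. Deviations from the tissue means correlated at 0.0359 to 0.2256 within 5 boars and −0.2427 to 0.1523 between boars. Alternatives were other scalings, filters and tests (DESeq2 1.42.0, limma 3.58.1), the boar as a block, and each library left out.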

Additional observations from a re-analysis of the deposited data

Results flagged for a closer look

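With 7 genes in 2 tissues, 14 groups of 5 libraries were checked for a single library apart from the other 4, and 2 were found. For normally distributed values chance alone gives about 1 in 20 groups. SLC2A2 in the backfat of boar 69 was at 0.235 CPM (14 counts), and the other 4 backfat libraries held 0 to 3 counts. PKLR in the backfat of boar 65 was at 0.541 CPM (48 counts), and the other 4 held 8 to 14 counts. Both lie in the tissue where the gene is low.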

How the results depend on the processing

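All 7 genes kept their direction and their side of the threshold in all 123 combinations of gene and alternative in which a gene was tested, and leaving out each library in turn left 7 to 7 called under both rules. The replicate block by boar left 7 and 7 called and changed no call of the 7. A minimum of 10 counts in each library left 4 of the 7 genes to test, of which 4 and 4 were called, because SLC2A2, HK2 and PKLR then have libraries under the minimum. Scaling by library size alone raised the genes higher in backfat to 1 among other sugar phosphorylation, 16 in glycolysis and 12 in surface handling, from 0, 8 and 7, and lowered the glycolysis genes higher in liver to 1, from 2. It moved the 7 log2 fold changes upward, to 2.86 for HK1 and −2.17 for SLC2A8 at the smallest in size. It also raised the levels per kilobase of all 7 genes in backfat and lowered them in liver. Those that moved by at least the SD of their 5 libraries went to 22.8 for SLC2A2 in liver, 2.29 for SLC2A8 and 19.5 for HK1 in backfat. For GCKR they went to 73.7 in liver and 0.535 in backfat. The others moved by less than their SD, such as SLC2A4 in backfat, from 30.1 to 37.9. Alternatives added after seeing the data left the liver of boar 67 or the backfat of boar 69 out of the list counts: surface handling then had 6 to 8 genes higher in backfat, glycolysis 8 to 9, and other hexose carriers 2 to 3 higher in liver. Depth limits SLC2A2 and PKLR in backfat and HK2 in liver, where single libraries held 0 to 48 counts.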

Other observations

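HK3, the hexokinase of white blood cells, was 52.5% ± 9.79 of HK1, HK2 and HK3 together per kilobase in liver and 9.55% ± 4.18 in backfat, and it reached 68.3% in the liver of boar 67. Of 6 markers of macrophages and neutrophils, 1 was higher in liver and 5 were not called. CD14 made up most of their sum, which was 621 to 1266 CPM in liver, lowest in boar 67, and 136 to 251 CPM in backfat. The neutrophil markers CSF3R (3.27 CPM, next 1.11) and S100A8 (9.45 CPM, next 2.98) were highest in the liver of boar 67. Their part in the HK3 share was not tested. GAPDH held 54 counts in backfat and 27 in liver and was not tested, so its count in this annotation is uncertain.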
